A study of Mus musculus with 6 samples.

Results

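The nucleolar assembly and RNA polymerase I and III genes of C2C12 mouse myoblasts were described across 3 RNA sequencing libraries. Members were the single-symbol rows of the deposited expression tables named for nucleolar proteins (Nop, Nol, Utp, Rrp and Noc genes), for subunits of polymerase I (Polr1) or polymerase III (Polr3), or for Ncl, Npm1, Grwd1, Bop1, Pes1, Wdr12, Gar1, Dkc1, Rrs1 and Mphosph10, leaving out Nol3. The choice used names and no measured value, but it was made with earlier results of these data known. It gave 58 of the 22988 rows. The tables listed 3 further rows that join a gene of the same rule to a neighbour (Dyrk1b with Fbl, Klhdc3 with Rrp36, Acsl3 with Utp14b), and these were not counted as members.

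C2C12 is a clonal myoblast line, given the strain label C3H, that divides in serum and can form muscle fibres when serum is withdrawn. The starved library came from cells given the siRNA called siNS and starved for 4 h in HBSS, a buffered salt solution without amino acids or serum. The knockdown library came from cells given siRNA against Foxk1, a forkhead transcription factor, and kept in growth medium. The control library came from siNS cells in growth medium. All 3 were polyadenylated RNA, with 1 library to a group. No difference between libraries could therefore be tested or set against a spread of replicates.

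The nucleolus is where ribosomes are built. RNA polymerase I copies the ribosomal DNA into a long precursor RNA, small nucleolar ribonucleoproteins (snoRNPs) modify that RNA at sites their guide RNAs select, and large assembly complexes cut and fold it onto ribosomal proteins. RNA polymerase III makes the remaining ribosomal RNA and the transfer RNAs. Making ribosomes uses much of a growing cell's energy, and in many cell types it is curtailed when nutrients run short.

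Levels are FPKM (fragments per kilobase of transcript, scaled to the fragments mapped) with the 95% interval that the authors deposited beside each value. A gene is called lower or higher apart where the intervals of the 2 libraries do not overlap. That compares 2 libraries, not 2 conditions with replicates. Fold changes are log2 of the ratio of FPKM + 1, which understates the change of low genes, and ratios are of plain FPKM. FPKM is a share of the sampled RNA, so a change in the total mRNA of a cell is not seen in it, and fewer cells of a type cannot be told apart from less of an RNA per cell.

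The library targeted for Foxk1 had 5.15 FPKM of Foxk1 (4.29 to 6.02), the starved library 16.1 FPKM (13.3 to 18.9), and the control 9.09 FPKM (7.76 to 10.4). All 7 myoblast markers listed, including Myod1, Des and Pax7, were above 1 FPKM in at least 1 library. Markers of adipocytes were all under 1 FPKM, with Plin1 and Lep at 0 in every library. The 3 libraries held 11171 (starved), 11138 (knockdown) and 11100 (control) rows at 1 FPKM or more, and their read depth is unknown. Over the members the interval's half-width had a median of 19.3% of the value in the starved, 19.4% in the knockdown and 17.7% in the control library.

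All 58 members were above 1 FPKM in all 3 libraries, so none entered a comparison through a single library. Member levels ranged from 3.09 to 880 FPKM in the starved, from 2.64 to 642 FPKM in the knockdown and from 2.34 to 807 FPKM in the control library. The medians were 14.5, 20.1 and 21.8 FPKM in that order of libraries. Npm1, which encodes the histone chaperone nucleophosmin, was the highest member throughout. In the control, Npm1 and Ncl stood apart from the gene next below them in the order of levels, as did Polr3gl from Nol4, the lowest. In the other 54 of the 57 neighbouring pairs the intervals overlapped.

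**Figure D1:**
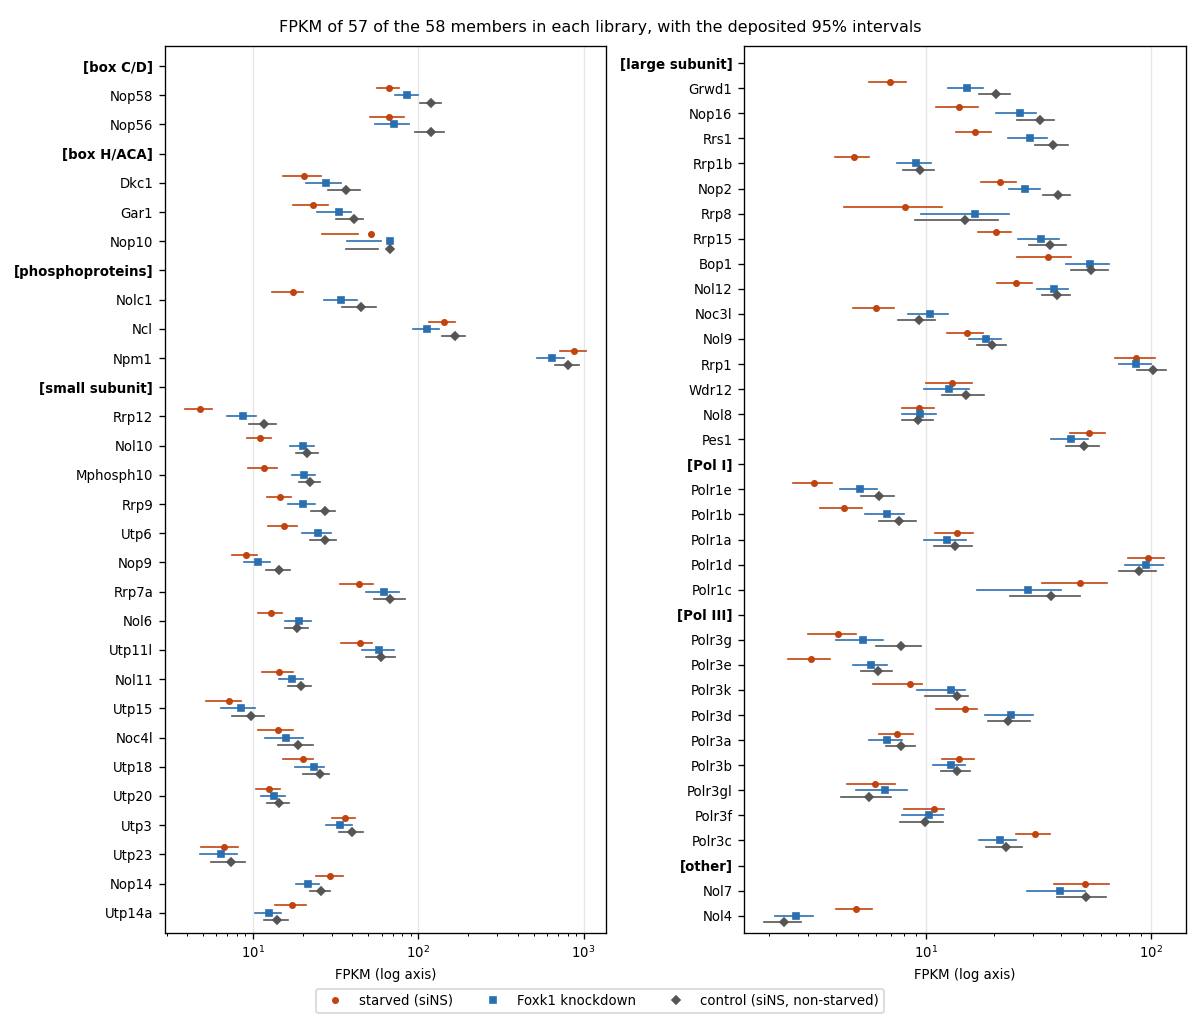
FPKM (log axis) of 57 of the 58 members in the starved, Foxk1 knockdown and control libraries, grouped by role, with a point for the deposited value and a bar for its 95% interval. Starved values lie left of the control for most snoRNP and assembly genes, such as Grwd1 at 6.90 against 20.4 FPKM, while Polr3a at 7.46 against 7.77 FPKM and Pes1 at 53.1 against 50.5 FPKM lie together.

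In the starved library 27 of the 58 members were lower apart from the control, 1 was higher apart and 30 overlapped it. The lower share was 46.6%, beside 10.9% of all 11396 expressed rows. With rows limited to those that averaged 5 FPKM or more, 25 members were lower apart, as were 11.4% of all such rows. The higher share was 1.72%, beside 12.2% of all rows. The median log2 fold change of the members was -0.46, against -0.01 for all expressed rows, and 45 of 58 were below 0. On the log2(FPKM + 1) scale 27 members were at least 1.5-fold lower (9.52% of all rows) and 5 at least 2-fold lower (3% of all rows). The 27 past 1.5-fold were not all the same genes as the 27 lower apart. Bop1 and Rrp8 passed the fold but overlapped the control, while Noc3l and Nol6 were lower apart but fell short of the fold. The count at 1.5-fold depends on the pseudocount: with 5 FPKM in place of 1 it was 16 members, beside 5.66% of all rows.

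The knockdown library differed much less from the control. Of 58 members, 4 were lower apart (6.90%, beside 7.13% of 11357 expressed rows) and 0 were higher apart (8.89% of all rows), so the lower share was close to that of the whole table. A single member, Nop56, was at least 1.5-fold lower (6.22% of all rows). Small differences still lay mostly on the low side, with 48 of 58 members below 0 and a median of -0.15, against 0.02 for all expressed rows.

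The starved and knockdown comparisons share the control library, so the 2 were also set against each other directly. In the starved library 17 members were lower apart from the knockdown library (29.3%, beside 13.7% of 11478 expressed rows), 1 was higher apart (13.3% of all rows), and the median log2 fold change was -0.33, against -0.02 for all rows. All 17 were also lower apart from the control.

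**Figure D2:**
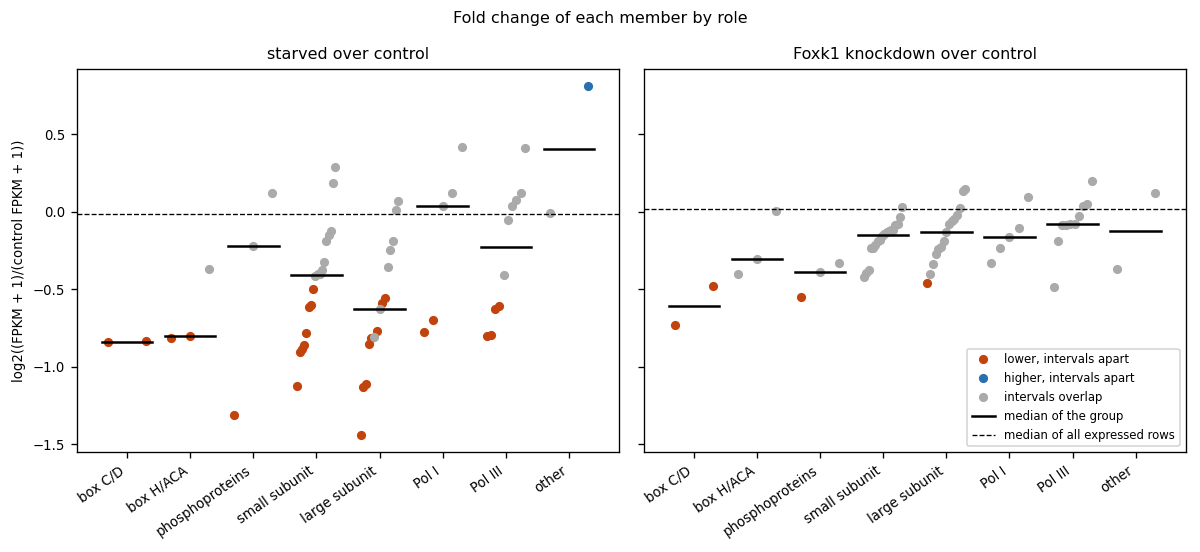
Log2 fold change of each member against the control, by role, in the starved (left) and Foxk1 knockdown (right) libraries. Filled colours mark intervals apart, black bars the median of each role and the dashed line the median of all expressed rows. In the starved library the box C/D median is -0.84. The median of the 5 polymerase I members, which leaves out subunits under older names, is 0.04.

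The promoter windows of 5 members are printed because these genes carry the main contrasts: Grwd1 had the largest decrease in the starved library, Nop2 and Nop56 were lower apart in both comparisons, and Polr3g and Polr3gl encode alternative forms of the same polymerase III subunit, of which Polr3g was lower apart in the starved library and Polr3gl overlapped the control. The windows are RefSeq sequence of build GRCm38.p6, 250 bases before and 50 after a gene's start, written along the gene's strand. They lie at chr7:45830740-45831039 (minus strand) for Grwd1, chr6:125131633-125131932 (plus) for Nop2, chr2:130274162-130274461 (plus) for Nop56, chr13:81710964-81711263 (minus) for Polr3g and chr3:96594132-96594431 (minus) for Polr3gl. Capitals mark CACGTG, the E-box that Myc and related factors can bind.
Grwd1: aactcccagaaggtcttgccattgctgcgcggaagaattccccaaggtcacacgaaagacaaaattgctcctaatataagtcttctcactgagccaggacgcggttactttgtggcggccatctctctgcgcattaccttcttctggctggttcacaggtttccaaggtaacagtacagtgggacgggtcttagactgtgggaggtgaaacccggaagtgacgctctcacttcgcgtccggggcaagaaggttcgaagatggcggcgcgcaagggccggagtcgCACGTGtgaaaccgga
Nop2: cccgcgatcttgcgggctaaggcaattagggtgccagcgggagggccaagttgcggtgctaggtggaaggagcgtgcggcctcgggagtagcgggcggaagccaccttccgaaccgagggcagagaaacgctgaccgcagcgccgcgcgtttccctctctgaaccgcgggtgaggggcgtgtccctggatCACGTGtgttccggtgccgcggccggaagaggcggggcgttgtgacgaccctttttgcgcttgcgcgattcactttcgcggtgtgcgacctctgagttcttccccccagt
Nop56: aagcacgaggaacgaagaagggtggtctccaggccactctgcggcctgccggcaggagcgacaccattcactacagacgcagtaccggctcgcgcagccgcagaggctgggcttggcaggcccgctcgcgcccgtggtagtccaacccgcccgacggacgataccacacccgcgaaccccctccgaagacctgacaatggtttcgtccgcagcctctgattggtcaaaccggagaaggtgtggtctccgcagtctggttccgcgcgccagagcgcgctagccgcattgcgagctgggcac
Polr3g: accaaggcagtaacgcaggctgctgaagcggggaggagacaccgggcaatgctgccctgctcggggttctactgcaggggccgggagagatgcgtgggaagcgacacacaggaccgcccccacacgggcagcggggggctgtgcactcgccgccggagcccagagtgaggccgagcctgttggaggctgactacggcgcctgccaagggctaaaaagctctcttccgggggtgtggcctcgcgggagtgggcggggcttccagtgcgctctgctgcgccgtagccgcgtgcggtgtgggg
Polr3gl: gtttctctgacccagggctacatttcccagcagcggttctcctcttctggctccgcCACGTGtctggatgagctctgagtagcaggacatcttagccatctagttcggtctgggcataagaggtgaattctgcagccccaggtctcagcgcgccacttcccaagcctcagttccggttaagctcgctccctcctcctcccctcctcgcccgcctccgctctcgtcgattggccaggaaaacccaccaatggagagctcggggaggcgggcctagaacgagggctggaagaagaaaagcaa

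Of the 58 members, 46 had a RefSeq promoter window. CACGTG, which reads the same on both strands, was in a window of 10 of the 46 (21.7%), and in 12.1% of 8196 expressed genes with a window. It was found in 4 of 22 members that were lower apart in the starved library (18.2%) and in 6 of 24 that were not (25%), so these letters did not separate the members that were lower. In Grwd1 the motif starts at base 35 after the gene's start, in Nop2 at base -60 and in Polr3gl at base -194. The forkhead motif TGTTTAC or its reverse GTAAACA was in the windows of 1 of 46 members, Rrp1b, and in 2.94% of expressed genes. Matches are letters in a sequence and not measured binding.

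Among snoRNP members, 4 of 5 were lower apart in the starved library. Of all expressed rows 10.9% were lower apart, and a group of 5 is small to set beside that share. The remaining member, Nop10, has no usable interval, as given below. Nop58 and Nop56 encode the paired core proteins of box C/D snoRNPs, which guide ribose methylation. Nop58 was at 66.6 FPKM (56.3 to 77.0) in the starved and 85.8 FPKM (72.2 to 99.5) in the knockdown library, against 120.2 FPKM (103 to 137) in the control. Nop56 was at 66.3 FPKM (51.1 to 81.5) in the starved and 71.3 FPKM (54.8 to 87.7) in the knockdown library, against 119 FPKM (95.1 to 143) in the control. Both were thus lower apart from the control in both libraries, with ratios of 0.554 and 0.714 for Nop58 and of 0.558 and 0.600 for Nop56, and the starved and knockdown intervals overlapped. The level of Nop58 was 1.00 times that of Nop56 in the starved, 1.2 times in the knockdown and 1.01 times in the control library. The row that joins Dyrk1b to Fbl, the methyltransferase of the same particle, overlapped in both comparisons at 102 FPKM in the starved, 92.3 FPKM in the knockdown and 114 FPKM in the control library.

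Dkc1 encodes dyskerin, the pseudouridine synthase of box H/ACA snoRNPs, and Gar1 a protein that binds it. Dkc1 was at 20.4 FPKM (15.1 to 25.7) in the starved and 27.6 FPKM (20.9 to 34.3) in the knockdown library, against 36.7 FPKM (28.5 to 44.4) in the control. Gar1 was at 23.2 FPKM (17.5 to 28.6) in the starved and 33.2 FPKM (24.4 to 39.4) in the knockdown library, against 41.1 FPKM (31.7 to 46.1) in the control. Both were lower apart in the starved library only by comparison with the control; the knockdown intervals overlapped those of the starved and of the control library. Nop10, the smallest H/ACA protein, was listed at 51.7, 67.3 and 67.1 FPKM in the starved, knockdown and control libraries. Its value lay above its own upper limit in all 3 libraries, so its interval gives no usable error, and it was the only member with this fault. Nhp2, the remaining H/ACA core protein and no member, was also lower apart in the starved library, which had 41.1 FPKM (29.2 to 50.4) where the control had 87.7 FPKM (62.8 to 104).

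Of the 3 nucleolar phosphoproteins, Nolc1 was lower apart in the starved library, Ncl in the knockdown library and Npm1 in neither. Nolc1, which carries snoRNPs between nucleolus and Cajal bodies, was at 17.5 FPKM (13.0 to 20.2) in the starved and 34.2 FPKM (26.7 to 42.8) in the knockdown library, against 44.9 FPKM (34.7 to 55.4) in the control. The starved library was apart from both others, at a ratio of 0.389 to the control, the second lowest of the members. Ncl, which encodes nucleolin, an RNA-binding protein of ribosomal DNA chromatin, was at 142 FPKM (117 to 168) in the starved and 113 FPKM (93.1 to 134) in the knockdown library, against 166 FPKM (139 to 193) in the control. Ncl was the only member lower apart in the knockdown library and not in the starved one. Npm1 was at 879.7 FPKM (721 to 1036) in the starved and 642 FPKM (525 to 759.7) in the knockdown library, against 807 FPKM (676 to 938) in the control, with all intervals overlapping. Npm1 has processed pseudogenes, and reads shared with such copies may be split between them by the counting.

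Npm1 made up 38.9% of the summed level of the members after starvation and 29.1% after knockdown, against 30.3% in the control. The 58 members summed to 2259 FPKM in the starved and 2207 FPKM in the knockdown library, against 2660.5 FPKM in the control. Without Npm1 the sums were 1379 FPKM in the starved and 1565 FPKM in the knockdown library, against 1854 FPKM in the control, ratios of 0.744 and 0.844 to the control. The starved sum was thus above the knockdown sum with Npm1 and below it without. All rows together also summed lower after starvation, to 527673 FPKM, against 562498 FPKM after knockdown and 566803 FPKM in the control. As a share of these totals the members without Npm1 made up 0.261% in the starved, 0.278% in the knockdown and 0.327% in the control library.

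The small subunit processome is the large particle that folds and cuts the front part of the precursor RNA, and 18 members were grouped under it and later small subunit steps. In the starved library 8 were lower apart, 0 were higher apart and 10 overlapped the control, with a median log2 fold change of -0.41. Of all expressed rows 10.9% were lower and 12.2% higher apart. Rrp12, a HEAT-repeat export and maturation factor, was at 4.78 FPKM (3.87 to 5.67) in the starved and 8.74 FPKM (7.0 to 10.5) in the knockdown library, against 11.6 FPKM (9.49 to 13.7) in the control. Mphosph10, a scaffold of the processome, was at 11.6 FPKM (9.38 to 13.9) in the starved and 20.4 FPKM (17.1 to 23.7) in the knockdown library, against 22.3 FPKM (19 to 25.5) in the control. For both genes the starved library was apart from the other two, which overlapped each other.

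Nol10 followed the same order, at 11.0 FPKM (9.15 to 12.8) in the starved and 20.2 FPKM (16.8 to 23.6) in the knockdown library, against 21.4 FPKM (18.1 to 24.6) in the control. Rrp9, a protein of the U3 snoRNP, was at 14.6 FPKM (12.1 to 17.0) in the starved and 20.0 FPKM (16.2 to 23.8) in the knockdown library, against 27.2 FPKM (22.6 to 31.5) in the control. The remaining lower members were Utp6, Nop9, Rrp7a and Nol6, with log2 fold changes of -0.78, -0.62, -0.60 and -0.50. Rrp9 was apart from the control only, as its starved and knockdown intervals overlapped. Of the 8 Utp members, Utp6 alone was lower apart, a count near the 10.9% of all expressed rows. Utp11l, Utp15, Utp18, Utp20, Utp3 and Utp23 overlapped the control and lay between -0.41 and -0.12. The other overlapping members were Nol11 (-0.40), Noc4l (-0.37) and Nop14 (0.19). Utp14a had the highest fold change of the group (0.29), at 17.3 FPKM (13.6 to 21.0) in the starved and 12.6 FPKM (10.3 to 14.9) in the knockdown library, against 14.0 FPKM (11.7 to 16.2) in the control. In the knockdown library no small subunit member was apart from the control, where 7.13% of all rows were lower and 8.89% higher apart. The group's fold changes there lay between -0.42 and 0.03.

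The 15 large subunit members included the largest decrease of the whole set. After starvation 8 were lower apart, 0 were higher apart and 7 overlapped, with a median of -0.63. Of all expressed rows 10.9% were lower and 12.2% higher apart. Grwd1, a histone-binding WD-repeat protein needed for large subunit assembly, was at 6.90 FPKM (5.61 to 8.17) in the starved and 15.2 FPKM (12.5 to 17.8) in the knockdown library, against 20.4 FPKM (17.2 to 23.6) in the control. Its ratio to the control was 0.338 after starvation and 0.745 after knockdown. Nop16 and Rrs1, assembly factors of the early large subunit, had log2 fold changes of -1.13 and -1.11 in the starved library.

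Nop16 was at 14.1 FPKM (11.1 to 17.0) in the starved and 26.3 FPKM (20.5 to 31.0) in the knockdown library, against 32.0 FPKM (25.4 to 36.9) in the control. Rrs1 was at 16.5 FPKM (13.6 to 19.4) in the starved and 28.9 FPKM (23.3 to 34.5) in the knockdown library, against 36.7 FPKM (30.6 to 42.7) in the control. In Grwd1, Nop16 and Rrs1 alike the starved library was apart from both others, and the knockdown interval overlapped that of the control. Nop2, which encodes a methyltransferase of the large subunit RNA also known as a proliferation antigen, was lower apart in both libraries: it was at 21.4 FPKM (17.6 to 25.2) in the starved and 27.6 FPKM (23.3 to 32.0) in the knockdown library, against 38.4 FPKM (33.1 to 43.8) in the control. Rrp1b, Rrp15, Nol12 and Noc3l were the other members lower apart in the starved library, with log2 fold changes of -0.85, -0.77, -0.59 and -0.56.

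Bop1, Pes1 and Wdr12 form the PeBoW complex of large subunit maturation, and none of the 3 was apart from the control in either comparison. Bop1 was at 34.7 FPKM (25.4 to 43.9) in the starved and 53.4 FPKM (42.0 to 64.9) in the knockdown library, against 54.2 FPKM (43.9 to 64.4) in the control, and the upper limit of the starved library just overlapped the lower limit of the control (log2 fold change -0.63). Pes1 was at 53.1 FPKM (43.8 to 62.4) in the starved and 44.2 FPKM (36.1 to 52.3) in the knockdown library, against 50.5 FPKM (42.0 to 59.0) in the control. Wdr12 was at 13.1 FPKM (10.0 to 16.0) in the starved and 12.7 FPKM (9.77 to 15.5) in the knockdown library, against 15.0 FPKM (11.8 to 18.1) in the control. Rrp8 had a log2 fold change of -0.81 in the starved library but wide intervals that overlapped: starved cells had 8.07 FPKM (4.34 to 11.8) where control cells had 14.9 FPKM (8.89 to 20.9). The remaining large subunit members, Nol9, Rrp1 and Nol8, overlapped the control with log2 fold changes of -0.35, -0.25 and 0.01.

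Of the 5 members that encode RNA polymerase I subunits, Polr1b and Polr1e were lower apart in the starved library. The other 3 overlapped the control, and the group median was 0.04. Polymerase I subunits listed under older names are no members, so this median leaves them out. Of these, Cd3eap was lower apart in the starved library (log2 fold change -1.31), while Twistnb (-0.26) and Znrd1 (-0.26) overlapped the control. Of all expressed rows 10.9% were lower apart, and a group of 5 is small to set beside that share. Polr1b, the second largest catalytic subunit, was at 4.31 FPKM (3.37 to 5.21) in the starved and 6.69 FPKM (5.36 to 8.01) in the knockdown library, against 7.62 FPKM (6.18 to 9.0) in the control. Polr1e, a subunit of the initiation and elongation subcomplex, was at 3.19 FPKM (2.57 to 3.81) in the starved and 5.10 FPKM (4.16 to 6.04) in the knockdown library, against 6.18 FPKM (5.13 to 7.22) in the control. In both genes the starved library was apart from the other two.

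Polr1a, the largest catalytic subunit and partner of Polr1b, was at 13.8 FPKM (11.0 to 16.2) in the starved and 12.4 FPKM (9.79 to 15.0) in the knockdown library, against 13.4 FPKM (10.9 to 16.0) in the control. The level of Polr1b was 0.312 times that of Polr1a in the starved and 0.540 times in the knockdown library, against 0.568 times in the control. Polr1c and Polr1d, which polymerase I shares with polymerase III, had log2 fold changes of 0.41 and 0.12 in the starved library, with overlapping intervals. In the knockdown library the 5 subunits that are members lay between -0.33 and 0.09, and none was apart (7.13% of all rows were lower and 8.89% higher).

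Of 10 members that encode subunits of RNA polymerase III, 4 were lower apart in the starved library (Polr3g, Polr3e, Polr3k and Polr3d). Another 6 overlapped, 0 were higher apart, and the median was -0.23. Of all expressed rows 10.9% were lower and 12.2% higher apart, and a group of 10 is small to set beside those shares. Polr3e was at 3.09 FPKM (2.44 to 3.75) in the starved and 5.73 FPKM (4.76 to 6.68) in the knockdown library, against 6.09 FPKM (5.16 to 7.03) in the control. Polr3d, which pairs with Polr3e in the enzyme, was at 14.9 FPKM (11.1 to 16.9) in the starved and 23.8 FPKM (18.3 to 29.7) in the knockdown library, against 23.2 FPKM (18.8 to 28.9) in the control. Polr3a and Polr3b, the catalytic subunits, had log2 fold changes of -0.05 and 0.03 in the starved library. Polr3f (0.12) overlapped the control too. Polr3c, of the trimer that acts in initiation, was highest of the group at 0.41: it was at 30.4 FPKM (25.1 to 35.6) in the starved and 21.2 FPKM (17.2 to 25.2) in the knockdown library, against 22.6 FPKM (18.4 to 26.6) in the control, with overlap throughout.

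Polr3g and Polr3gl encode interchangeable subunits, the first known from stem and dividing cells and the second from most tissues. Polr3g was at 4.05 FPKM (2.98 to 4.89) in the starved and 5.27 FPKM (3.99 to 6.42) in the knockdown library, against 7.78 FPKM (6.02 to 9.53) in the control. Polr3gl was at 5.92 FPKM (4.45 to 7.27) in the starved and 6.54 FPKM (4.91 to 8.19) in the knockdown library, against 5.57 FPKM (4.18 to 6.98) in the control. Polr3g was lower apart in the starved library alone, and Polr3gl overlapped throughout. The level of Polr3g was 0.684 times that of Polr3gl in the starved and 0.805 times in the knockdown library, against 1.40 times in the control, so the order of the 2 levels differed between the control and the other libraries, although within each library their intervals overlapped.

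Nol4 and Nol7 had not been placed in any of the role groups. Nol4, which is named for the nucleolus and given no assembly role here, was the member higher apart in the starved library, at 4.86 FPKM (3.97 to 5.75) in the starved and 2.64 FPKM (2.13 to 3.15) in the knockdown library, against 2.34 FPKM (1.91 to 2.78) in the control. It was also the starved library's only member higher apart from the knockdown library. Nol7, whose human counterpart is known as a small subunit processome protein but which is not among the 18 counted above, was at 51.0 FPKM (36.9 to 65.1) in the starved and 39.4 FPKM (28.0 to 50.8) in the knockdown library, against 51.2 FPKM (38.2 to 63.0) in the control, with overlap throughout. Of the rows left out for joined names, the one with Acsl3 and Utp14b was higher apart in the starved library at 62.2 FPKM (48.9 to 73.0), where the control had 25.9 FPKM (21.0 to 30.2), and its 2 genes cannot be told apart.

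Genes of the same pathway that are no members were read from lists chosen by function. Of all expressed rows 10.9% were lower and 12.2% higher apart in the starved library, and 7.13% were lower apart in the knockdown library. Of 32 other small subunit factors, 13 were lower apart (40.6%) and 0 higher apart in the starved library (median -0.47), and 1 was lower apart in the knockdown library (3.1%). This list includes Nhp2, given above with the snoRNP genes; without it, 12 of 31 were lower apart in the starved library (median -0.46). Bysl and Tsr1 had the largest changes of that list in the starved library, with log2 fold changes of -1.12 and -1.11. Of 29 other large subunit factors, 8 were lower apart (27.6%) and 0 higher apart in the starved library (median -0.37), and 1 was lower apart in the knockdown library (3.45%). Ppan led them, at 9.85 FPKM (8.0 to 11.7) in the starved and 25.4 FPKM (21.1 to 29.6) in the knockdown library, against 25.9 FPKM (22.1 to 29.7) in the control. Of 15 nucleolar RNA helicases, 5 were lower apart in the starved library (33.3%), among them Ddx56 (-0.88) and Dhx33 (-0.79), and 0 were higher apart (median -0.49).

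Of 10 factors and further subunits of polymerase I, 4 were lower apart in the starved library (40%, beside 10.9% of all expressed rows). Taf1b alone was higher apart, where 12.2% of all rows were. Cd3eap, a polymerase I subunit under an older name, was at 4.27 FPKM (2.53 to 5.85) in the starved and 11.7 FPKM (8.02 to 15.8) in the knockdown library, against 12.1 FPKM (8.76 to 16.0) in the control. Rrn3, the growth-regulated initiation factor of polymerase I, was at 16.8 FPKM (12.5 to 18.9) in the starved and 27.3 FPKM (21.0 to 31.4) in the knockdown library, against 24.3 FPKM (18.9 to 27.3) in the control, where the starved and control limits lay close together. Ubtf, the architectural factor of ribosomal DNA, was at 33.1 FPKM (25.8 to 39.8) in the starved and 51.7 FPKM (41.1 to 63.1) in the knockdown library, against 49.0 FPKM (40.1 to 59.3) in the control, again with limits close together.

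Of 15 polymerase III factors, 1 was lower apart (Snapc1) and 1 higher apart in the starved library. Each is 6.67% of the list, under the shares of all expressed rows (10.9% lower and 12.2% higher), so the list as a whole did not stand out. The higher one was Maf1, the repressor of polymerase III that acts when nutrients are short, at 84.2 FPKM (67.3 to 101) in the starved and 51.0 FPKM (40.2 to 61.9) in the knockdown library, against 41.9 FPKM (33.7 to 50.4) in the control. None of the 5 subunits that all 3 polymerases share was apart in the starved library, and their median log2 fold change was -0.30. Of 7 subunits that belong to polymerase II alone, Polr2d was lower apart (log2 fold change -0.90) and Polr2a higher apart (0.49). The polymerase II lower share, 14.3%, is close to the 10.9% of all expressed rows. A list of 5 is too short for a count of 0 to differ from that share. Of 77 expressed genes named for ribosomal proteins, many with pseudogene copies, 1 was lower apart in the starved library (Rpl7l1, log2 fold change -0.91) and the median was -0.03. For 32 of these 77 the deposited value lay outside its own limits in a library compared, the fault seen in Nop10, so their intervals give no usable error. Without them 1 of 45 was lower apart (2.22%). Znrd1, Polr2f, Polr2j and Nhp2l1 of the lists above had the same fault, and leaving them out changed no count of genes apart. In the knockdown library 0 genes of the lists of helicases, polymerase I factors, polymerase III factors, shared subunits, polymerase II subunits and ribosomal proteins were apart from the control. Of all expressed rows 7.13% were lower and 8.89% higher apart there. Most of these lists are short, so nothing is read from their counts of 0.

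**Figure D3:**
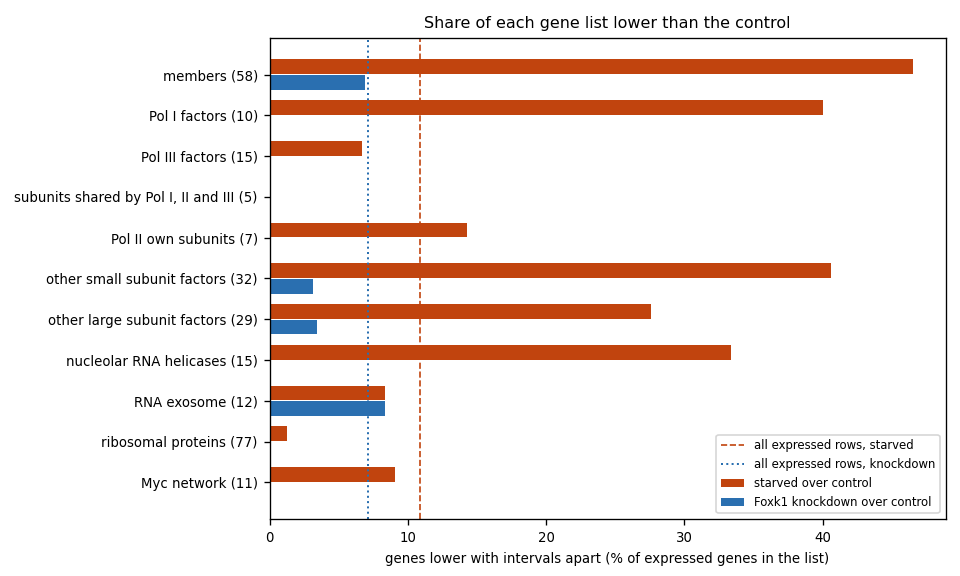
Percentage of the expressed genes of each list (number in brackets) that were lower apart from the control in the starved and Foxk1 knockdown libraries, with the share of all expressed rows as a dashed and a dotted line (10.9% and 7.13%). The starved share is 46.6% in the members and 1.30% in genes named for ribosomal proteins, 32 of which have values outside their own limits.

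Markers of dividing and of differentiated muscle cells were read in the same libraries. Of 16 cycling-cell markers, 16 were lower apart in the knockdown library (7.13% of all rows were), and their summed level was 874 FPKM there, against 1506 FPKM in the control. In the starved library 3 of the 16 were lower apart and 1 higher apart, at a sum of 1314 FPKM. Of all rows 10.9% were lower and 12.2% higher apart there, so these counts do not set the markers off from the whole table. Of 18 expressed markers of differentiated muscle, 13 were higher apart in the knockdown library (8.89% of all rows were), at a sum over the list of 443 FPKM, against 195 FPKM in the control, and in the starved library 3 of 17 were lower apart and 0 higher apart, at a sum of 111 FPKM. Of the 7 myoblast markers, 1 was lower apart (Myod1) and 1 higher apart (Myf5) in the starved library, with a median log2 fold change of -0.05, and 0 were apart in the knockdown library. Myod1, which commits cells to the myoblast fate, stood at 10.7 FPKM (8.49 to 12.8) in the starved and 95.8 FPKM (76.9 to 114) in the knockdown library, against 70.1 FPKM (57.6 to 82.3) in the control. Myf5, a related factor of the same fate, stood at 29.6 FPKM (20.6 to 31.1) in the starved and 17.5 FPKM (12.6 to 20.4) in the knockdown library, against 16.8 FPKM (12.2 to 19) in the control. Of 6 markers of bone and cartilage, Dmp1 alone reached 1 FPKM, and it was lower apart in the starved and higher apart in the knockdown library, while Ibsp was at 0 throughout. Of 4 markers of blood and endothelium found, Cd68 alone reached 1 FPKM, with intervals overlapping those of the control. The part of these shifts in the members' values was not tested.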

How the data were processed

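The deposited RNA tables give, per the file headers, a mean FPKM and the limits of a 95% interval for each gene symbol. The submitters' processing notes name build mm9, the aligners Bowtie2 2.1.0 and TopHat2 2.0.9, and Cuffdiff with Cufflinks 2.1.1. Sources used here do not give the annotation, the strand setting or the making of the intervals. The FPKM values deposited by the authors were used unscaled. Read depth is unknown, and the number of libraries limits the precision. The row of Zzz3, with reversed limits in the knockdown table, was left out. ChIP region lists were not used here. The values of 1 member are not reported here, though it is counted.

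Rows under 1 FPKM in both libraries of a comparison were left out of it. Fold changes used a pseudocount of 1 FPKM. Calls were made on all rows (intervals apart; 1.5-fold), and 95% intervals are the authors'. Members, roles, gene lists and markers were chosen with earlier results of these data known. Named genes were the largest changes and highest levels of each role, up to 2 genes of each further list, and a few fixed regulators. Nhp2, polymerase I subunits under older names, markers, genes behind counts of 5 or fewer and the promoters printed were chosen after values were seen. Promoters were matched by symbol or RefSeq synonym. Alternatives covered filter, scaling, pseudocount and fold. The scripts were tested on simulated data (Python 3.11.15, numpy 2.4.6, pandas 2.3.3, matplotlib 3.10.9).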

Additional observations from a re-analysis of the deposited data

How the results depend on the processing

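Of 47 alternative settings over the member counts and medians, 43 left the value close to that reported (a count within 1.5 times, a median within 0.1 and 1.5 times) and none turned a median's direction. In the starved library, the count of members at least 1.5-fold lower was 16 with a pseudocount of 5 FPKM (5.66% of all rows), and 5 members passed a fold of 2 in place of 1.5. Limiting the rows to those averaging 5 FPKM or more left 0 members higher apart, since Nol4 lies under that level. In the knockdown library 0 members passed a fold of 2. Median-ratio scaling moved the median of all expressed rows in the starved comparison to 0.02. Counts of the further gene lists without Nhp2, or without genes whose value lies outside its limits, were added after the data were seen. No paired analysis was possible because each group had 1 library and the labels give no replicate numbers; for the same reason no library could be left out. The intervals cover only what the authors' software modelled, and spread between cultures was not measured.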

Other observations

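Myc drives ribosome genes in many cells. Its network, which also includes repressors such as Mnt, was read from a list of 12 genes. Myc was at 27.0 FPKM (21.7 to 32.2) in the starved and 32.4 FPKM (25.8 to 39.1) in the knockdown library, against 27.0 FPKM (21.9 to 32.2) in the control. The Myc intervals overlapped throughout. Of 11 expressed genes of the network, 4 were higher apart in the starved library (12.2% of all rows were), namely Mnt, Mxi1, Mxd1 and Mxd4. Mnt, a repressor that competes for the partner Max, was at 26.9 FPKM (21.9 to 32.0) in the starved and 17.7 FPKM (14.8 to 20.6) in the knockdown library, against 11.3 FPKM (9.52 to 13.0) in the control. Mxi1 was at 17.6 FPKM (13.8 to 21.6) in the starved and 8.0 FPKM (6.58 to 9.41) in the knockdown library, against 7.71 FPKM (6.45 to 8.97) in the control. Mlx was the gene of the network lower apart in the starved library, with a log2 fold change of -0.98. Mxd3, like Mxd1 and Mxd4 a gene of the Mxd family, had a log2 fold change of -0.69 after starvation and -0.55 after knockdown. Mga had 0.32 after starvation and 0.33 after knockdown, and both genes had intervals that overlapped the control. After knockdown 4 of the 11 were higher apart (8.89% of all rows were), namely Mycl1, Mxd4, Mnt and Mxd1, and knockdown cells had 13.7 FPKM of Mycl1 (11.5 to 16.0) where control cells had 3.70 FPKM (3.08 to 4.32). Mycn was under 0.1 FPKM in all 3 libraries.

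The RNA exosome, which trims ribosomal precursor RNA, had 1 of 12 genes lower apart in each comparison (8.33%), close to the share of all expressed rows (10.9% after starvation and 7.13% after knockdown), and nothing is read from these counts. In the starved library this was Exosc2, with 16.1 FPKM (13.1 to 19.1) where the control had 30.7 FPKM (24.7 to 35.9). In the knockdown library it was Exosc8, with 22.7 FPKM (18.8 to 26.6) where the control had 36.7 FPKM (30.9 to 42.4).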
